A study of Mus musculus with 8 samples.

Results

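The respiratory chain and ATP synthase of the mitochondrial inner membrane are built from complexes I to V, and the genes described here encode the nuclear subunits of these complexes. Members were chosen by gene symbol alone: names that begin with Ndufa, Ndufb, Ndufc, Ndufs or Ndufv and a digit, the 4 Sdh subunit genes, and names that begin with Uqcr, with Cox and a digit between 4 and 8, or with Atp5. The rule found 83 genes among the 49315 features of the table, after 6 names that mark pseudogenes were left out. Of these, 35 belong to complex I, 4 to complex II, 8 to complex III, 19 to complex IV and 15 to complex V. Ndufa4 and Ndufa4l2 carry complex I names but are counted with complex IV, where the Ndufa4 protein is found. Cox7a2l, a factor that joins complexes into supercomplexes, and Atp5s, which is not a subunit of ATP synthase, match the rule by name and are kept apart.

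The samples were total B cells isolated from the spleen of mice aged 4 months, and every mouse was FcγRIIB-/-, without the Fc receptor that restrains B cells. The 4 UMPS_BKO samples came from FcγRIIB-/- mice whose B cells were deficient in Umps, the gene of the enzyme that completes uridine monophosphate in de novo pyrimidine synthesis. The 4 control samples came from FcγRIIB-/- mice labelled CD23Cre+, in which the promoter of a B cell surface gene drives the Cre recombinase. The labels do not name the Cre of the UMPS_BKO mice, and the whole isolate was sequenced, so other cells in it are read too. No label ties a sample to its own animal, so p-values cover the spread between these samples only, and that spread may be technical.

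Complex I takes electrons from NADH and complex II takes them from succinate, and both hand them to ubiquinone. Complex III passes them on to cytochrome c and complex IV to oxygen, while complexes I, III and IV pump protons whose return through complex V drives ATP synthesis. Mitochondrial DNA encodes a few core subunits of complexes I, III, IV and V, and all other subunits come from nuclear genes such as those described here. De novo pyrimidine synthesis meets this chain at Dhodh, an enzyme of the inner membrane that also hands electrons to ubiquinone, upstream of Umps. Several complex IV subunits exist as a ubiquitous isoform and a second isoform used in heart and skeletal muscle, lung or testis.

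Libraries of the same group differed in make-up. In units of 1000000 reads, recovered depth was 10.6 to 28.6 in UMPS_BKO and 5.81 to 18.8 in controls, and the median over the tested members was 400.3 to 4141 reads per UMPS_BKO library and 462.0 to 1470.0 reads per control library. Ribosomal RNA-like features took 37.3% to 60.1% of TPM in UMPS_BKO and 5.39% to 60.05% in controls. The 14 skeletal muscle markers took 14.6% of TPM in UMPS_BKO replicate 4 and 0.0314% to 0.159% in the other 3 UMPS_BKO libraries, against 0.000027% to 0.335% in controls. The 10 hepatocyte markers took at most 0.0018% in UMPS_BKO, against 4.22% in control replicate 2, 1.29% in control replicate 3 and at most 0.000201% in the other 2 controls. All 16 pan-B cell markers were above 0 in every library, and they summed to 0.0874% to 1.66% of TPM in UMPS_BKO and 0.764% to 3.38% in controls. The 9 red cell markers summed to 0.416% to 4.70% of TPM in UMPS_BKO and 0.0116% to 0.0514% in controls. Umps itself was at 5.99, 1.05, 13.6 and 2.16 TPM in UMPS_BKO replicates 1 to 4 and at 16.1, 35.1, 18.6 and 8.98 TPM in control replicates 1 to 4, so UMPS_BKO replicate 3 lay above control replicate 4. The fit gave Umps a log2 difference of −1.88 ± 0.76 (SE, n = 4 per group; limma, adjusted p = 0.283). The libraries with the most muscle and liver marker TPM are UMPS_BKO replicate 4 and control replicate 2, and the log2 differences that leaving out UMPS_BKO replicate 4 moved most are given without it as well.

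Promoter letters of the members were read for motifs of known regulators of respiratory genes. RefSeq windows of GRCm38.p6, from 250 bases before to 50 bases after the transcription start, were found for 68 of the 83 genes, in 73 windows. The motif of NRF1, a transcription factor, was searched on both strands as a consensus of 10 letters, with 1 open position, and stood in 18 of the 73 windows (24.7%), against 4.603% of all 32851 windows in the table. The ETS motif CCGGAAG, which GABP binds, stood in 16 windows (21.9%), against 8.86% of all windows. The YY1 motif, searched as its consensus of 10 letters, stood in 5 windows (6.85%), against 0.852% of all windows. At least 1 of the 3 stood in 33 windows (45.2%), against 13.1% of all windows. A pair of motifs chosen after the sequences were seen went the other way: the E-box CAGCTG stood in 8.22% of the members' windows, against 16.3% of all windows, and TATAAA in 10.96%, against 13.6%. None of the 4 windows of tissue isoforms held NRF1, ETS or YY1 letters, 1 held the E-box and 2 held TATAAA. The 4 stretches below show a muscle-type isoform, its ubiquitous partner, a second ubiquitous subunit and the catalytic subunit of complex II, each from 150 bases before to 30 bases after the start, 5′ to 3′ on the gene's own strand. Capitals mark a motif, none of which overlap: 2 E-boxes and a TATAAA in Cox8b (chr7:140900417-140900596, minus strand), 1 ETS motif in Cox8a (chr19:7217587-7217766, minus strand), 1 NRF1 and 1 ETS motif in Cox6a1 (chr5:115348929-115349108, minus strand) and 3 NRF1 motifs in Sdha (chr13:74350211-74350390, minus strand).
Cox8b: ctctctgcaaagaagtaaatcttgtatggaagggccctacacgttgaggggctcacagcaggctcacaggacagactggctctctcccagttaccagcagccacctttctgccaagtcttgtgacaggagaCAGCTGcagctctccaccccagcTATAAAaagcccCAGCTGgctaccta
Cox8a: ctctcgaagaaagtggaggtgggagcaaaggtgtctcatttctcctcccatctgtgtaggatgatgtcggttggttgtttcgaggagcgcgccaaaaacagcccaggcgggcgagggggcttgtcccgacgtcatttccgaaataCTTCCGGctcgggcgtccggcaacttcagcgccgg
Cox6a1: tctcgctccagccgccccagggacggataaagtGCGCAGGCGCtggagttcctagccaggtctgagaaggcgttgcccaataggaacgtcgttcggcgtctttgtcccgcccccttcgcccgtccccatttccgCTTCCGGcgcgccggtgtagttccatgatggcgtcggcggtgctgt
Sdha: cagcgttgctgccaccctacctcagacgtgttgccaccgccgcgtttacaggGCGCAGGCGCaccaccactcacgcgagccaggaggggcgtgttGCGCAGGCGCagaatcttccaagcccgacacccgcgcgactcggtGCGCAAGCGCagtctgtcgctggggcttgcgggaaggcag
A match of letters is a description of the sequence and not a measured binding site.

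Of the 83 members, 79 passed the filter of at least 1 TPM in at least 4 of the 8 libraries, and Cox4i2, Cox7b2, Cox8c and Ndufa4l2 did not. No member passed the test across all genes (limma on log2(TPM + 1), Benjamini-Hochberg adjusted p under 0.05), higher or lower in UMPS_BKO. A difference that missed the threshold is not shown to be absent. Among all 10708 genes tested, 0.131% passed, 0.0374% higher and 0.0934% lower. At an unadjusted p under 0.05 stood 3 of the 79 members, Ndufa1, Cox8a and Cox6a1, all with a difference below 0, against 17.4% of all genes. The log2 difference, UMPS_BKO minus control, was below 0 for 74 of the 79 members (93.7%), against 84.3% of all genes. Its median over the members was −0.67, against −0.90 over all tested genes. On the median-of-ratios scale the members' median was 0.28 and that of all genes −0.15, so the sign for the family depends on the scaling. In bulk samples, fewer cells of a type and less RNA per cell cannot be told apart.

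A single library stood apart from the others. UMPS_BKO replicate 4 was the highest of the 8 libraries for 49 of the 79 members (62.0%), against 11.3% of all tested genes. UMPS_BKO replicate 2 was the lowest for 47 members (59.5%), against 48.0% of all genes. In UMPS_BKO replicates 1 to 3 taken alone, 8 of 79 members (10.1%) lay below all 4 controls, namely Ndufa1, Ndufb4, Ndufb7, Ndufs6, Uqcr10, Cox5a, Cox7a2 and Atp5j2, against 7.89% of all genes. When UMPS_BKO replicate 4 was left out of the fit, 26 of 79 members (32.9%) had an unadjusted p under 0.05, against 15.3% of all genes, and none passed the adjusted threshold. The skeletal muscle markers were also highest in UMPS_BKO replicate 4, and their part in its respiratory chain values was not tested.

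**Figure D1:**
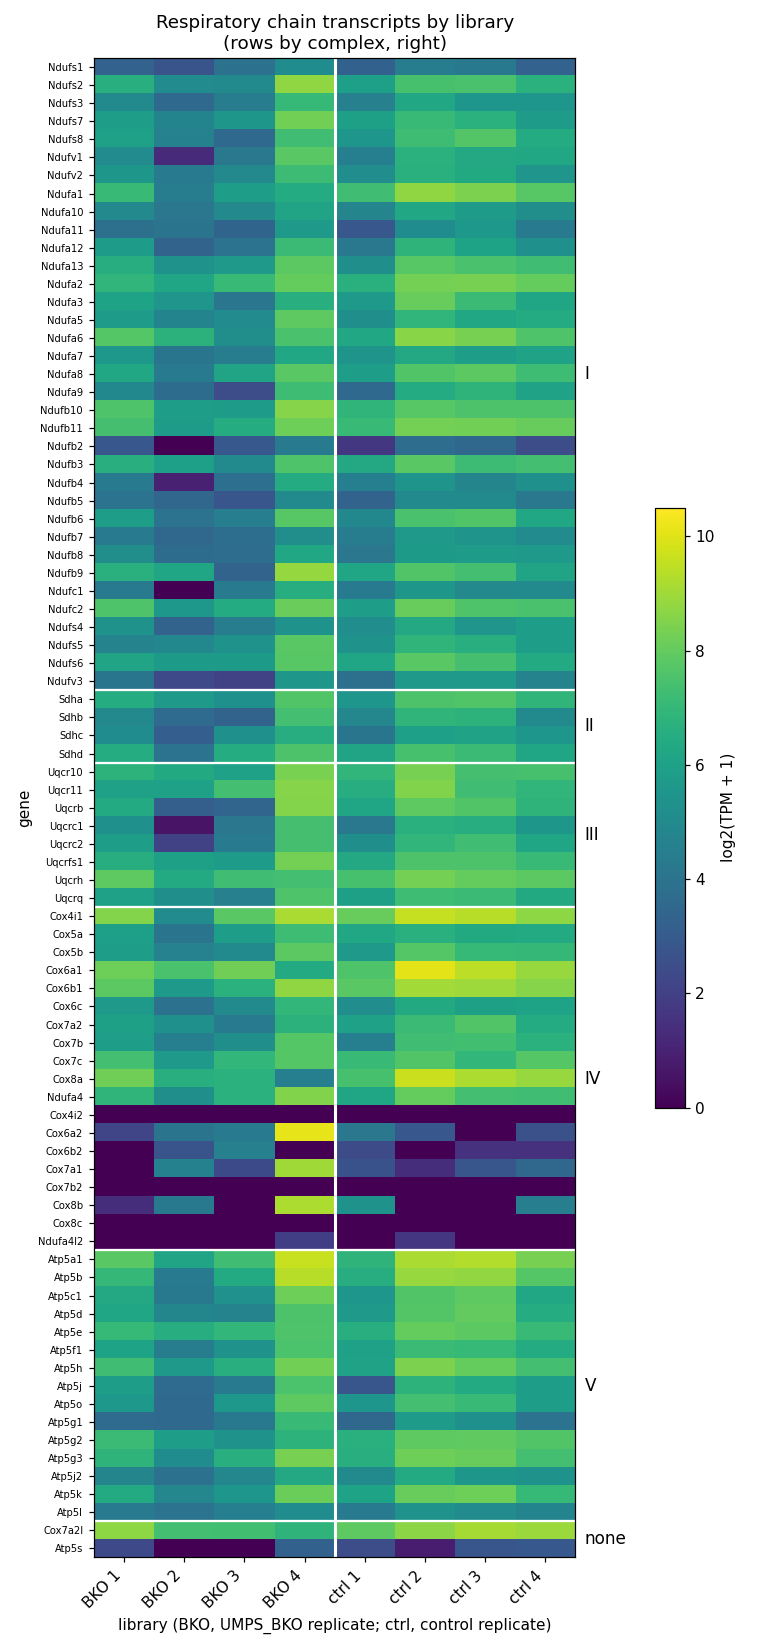
Level of each of the 83 members as log2(TPM + 1) (colour) in the 4 UMPS_BKO and 4 control libraries (columns), grouped by complex (rows). UMPS_BKO replicate 4 is the brightest column for 49 of the 79 tested members, whereas Cox6a1, Cox8a and Cox7a2l are lowest there; Cox4i2, Cox7b2 and Cox8c are listed at 0 throughout.

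Complex I holds 7 nuclear-encoded core subunits, which carry flavin and iron-sulphur clusters, and accessory subunits around them. All 35 tested genes had a log2 difference below 0, against 84.3% of all genes. The differences lay between −2.09 and −0.04, with a median of −0.46 for the 7 core genes and −0.79 for the 28 accessory genes. On the median-of-ratios scale these medians were 0.47 and 0.15. Ndufa1, an accessory subunit needed to assemble the membrane arm, is the one member whose groups did not overlap, a pattern found with all UMPS_BKO libraries lower in 4.81% of all genes. No member had all UMPS_BKO libraries above all controls, against 0.504% of all genes. It lies on the X chromosome (ENSMUSG00000016427, GRCm38 X, 37187588 to 37191163, minus strand). Ndufa1 had 135, 20.4, 58.4 and 87.2 TPM in UMPS_BKO replicates 1 to 4, against 155, 429, 340 and 217 TPM in control replicates 1 to 4. The highest UMPS_BKO library and the lowest control library, both replicate 1, differed by little. Its log2 difference was −2.09 ± 0.65 (SE, n = 4 per group; limma, adjusted p = 0.283). Without UMPS_BKO replicate 4 the difference was −2.26, so this gene does not share the high level of that library.

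Among the other complex I genes of small p, Ndufv3, an accessory subunit of the NADH-binding module, had 15.7, 3.96, 3.18 and 45.5 TPM in UMPS_BKO replicates 1 to 4, against 13.7, 49.9, 48.2 and 24.9 TPM in control replicates 1 to 4. Its groups overlapped, with UMPS_BKO replicate 1 above control replicate 1 and UMPS_BKO replicate 4 above control replicates 1 and 4 (−1.47 ± 0.82; limma, adjusted p = 0.326). Ndufs4, whose loss in humans causes complex I deficiency, had 40.1, 9.15, 20.3 and 41.3 TPM in UMPS_BKO and 34.3, 78.9, 43.9 and 57.5 TPM in controls. Here only control replicate 1 fell inside the UMPS_BKO range (−1.07 ± 0.62; limma, adjusted p = 0.334). Ndufs8, a core subunit with 2 iron-sulphur clusters, had 62.8, 23.3, 10.9 and 153 TPM in UMPS_BKO and 44.2, 149, 206 and 87.6 TPM in controls. UMPS_BKO replicate 4 exceeded 3 of the 4 controls (−1.36 ± 0.80; limma, adjusted p = 0.340). Without that library the differences were −2.16 for Ndufv3, −1.33 for Ndufs4 and −1.999 for Ndufs8.

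Ndufa2 and Ndufb11, both accessory subunits, had the highest mean levels in complex I. Ndufa2 had 121, 72.0, 137 and 258 TPM in UMPS_BKO and 101, 318, 324 and 259 TPM in controls (−0.78 ± 0.60; limma, adjusted p = 0.425). Ndufb11 had 169, 53.3, 88.4 and 290 TPM in UMPS_BKO and 139, 316, 303 and 264 TPM in controls (−0.97 ± 0.62; limma, adjusted p = 0.361). In both genes the 3 controls with high values stood near UMPS_BKO replicate 4 and control replicate 1 stood among the other UMPS_BKO libraries. Without UMPS_BKO replicate 4 the differences were −1.10 for Ndufa2 and −1.38 for Ndufb11. Ndufs1, the largest core subunit, was chosen after its values were seen because its difference was the nearest to 0 in the complex (−0.04 ± 0.68). It had 8.83, 5.68, 14.5 and 33.5 TPM in UMPS_BKO and 8.61, 21.1, 18.0 and 8.79 TPM in controls. Ndufc1 was listed at 0 in UMPS_BKO replicate 2 and at 19.0 to 92.5 TPM in the other 7 libraries. It encodes a subunit that every respiring cell uses, so a listed 0 in this table need not be an absence.

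Complex II is the enzyme of the citric acid cycle that feeds electrons from succinate to ubiquinone, and it has no mitochondrially encoded subunit. All 4 genes were highest in UMPS_BKO replicate 4, and none differed beyond the spread. Sdha, the flavoprotein that oxidises succinate, had 89.5, 50.9, 38.0 and 201 TPM in UMPS_BKO and 44.997, 189, 198 and 118 TPM in controls (−0.62 ± 0.68; limma, adjusted p = 0.570). Sdhb, the iron-sulphur subunit, had 30.04, 11.8, 9.05 and 163 TPM in UMPS_BKO and 28.5, 116, 108 and 30.9 TPM in controls (−1.05 ± 0.88; limma, adjusted p = 0.462). In both genes UMPS_BKO replicates 2 and 3 were lower than or close to the lowest control. Sdhc, a membrane anchor, had 33.7, 7.73, 37.6 and 90.9 TPM in UMPS_BKO and 15.8, 59.1, 64.7 and 45.4 TPM in controls (−0.38 ± 0.76; limma, adjusted p = 0.760). Sdhd, the other anchor, had 90.2, 14.9, 90.3 and 188 TPM in UMPS_BKO and 69.2, 173, 143 and 72.3 TPM in controls (−0.59 ± 0.74; limma, adjusted p = 0.623). The lowest value of each anchor gene was in UMPS_BKO replicate 2. The differences were −1.08 for Sdha, −1.89 for Sdhb, −0.88 for Sdhc and −1.06 for Sdhd when UMPS_BKO replicate 4 was left out. On the median-of-ratios scale, the difference was above 0 for Sdha (0.33), Sdhc (0.55) and Sdhd (0.35) and −0.12 for Sdhb.

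Complex III had a median log2 difference of −0.75 over 8 genes, and 0.20 on the median-of-ratios scale. Uqcrb, which helps bind ubiquinone, had 84.2, 8.01, 9.71 and 377 TPM in UMPS_BKO and 70.6, 240, 201 and 114 TPM in controls (−1.75 ± 1.04; limma, adjusted p = 0.344). Uqcrc2, a core protein on the matrix side, had 55.8, 3.11, 19.8 and 166 TPM in UMPS_BKO and 36.3, 120, 156 and 71.3 TPM in controls (−1.50 ± 0.97; limma, adjusted p = 0.371). For both genes the UMPS_BKO libraries held the lowest values, in replicates 2 and 3, and also the highest, in replicate 4. Uqcrq, a small membrane subunit, behaved alike, with 63.0, 36.04, 22.7 and 195 TPM in UMPS_BKO and 60.7, 151, 143 and 81.3 TPM in controls. Leaving out UMPS_BKO replicate 4 moved the differences to −2.81 for Uqcrb, −2.32 for Uqcrc2 and −1.42 for Uqcrq, and leaving out UMPS_BKO replicate 2 moved them to −1.01, −0.54 and −0.62. Uqcrc1, the other core protein, was at 0.467 TPM in UMPS_BKO replicate 2, which corresponds to 19.0 reads, and at 16.7 to 168 TPM elsewhere.

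The hinge protein Uqcrh, which lies near cytochrome c1, was the exception in this complex to the high level of UMPS_BKO replicate 4. It had 234, 85.3, 154 and 163 TPM in UMPS_BKO and 172, 317, 258 and 230 TPM in controls (−0.67 ± 0.52; limma, adjusted p = 0.431). UMPS_BKO replicate 1 alone lay within the control range. Uqcr11, a small subunit of the membrane part, had 63.1, 63.6, 165 and 389 TPM in UMPS_BKO and 92.9, 361, 156 and 119 TPM in controls (−0.31 ± 0.70; limma, adjusted p = 0.784). Its log2 difference turned to 0.64 on the median-of-ratios scale, and that of Uqcrh to 0.28. Leaving out UMPS_BKO replicate 4 gave −0.85 for Uqcr11 and −0.71 for Uqcrh.

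**Figure D2:**
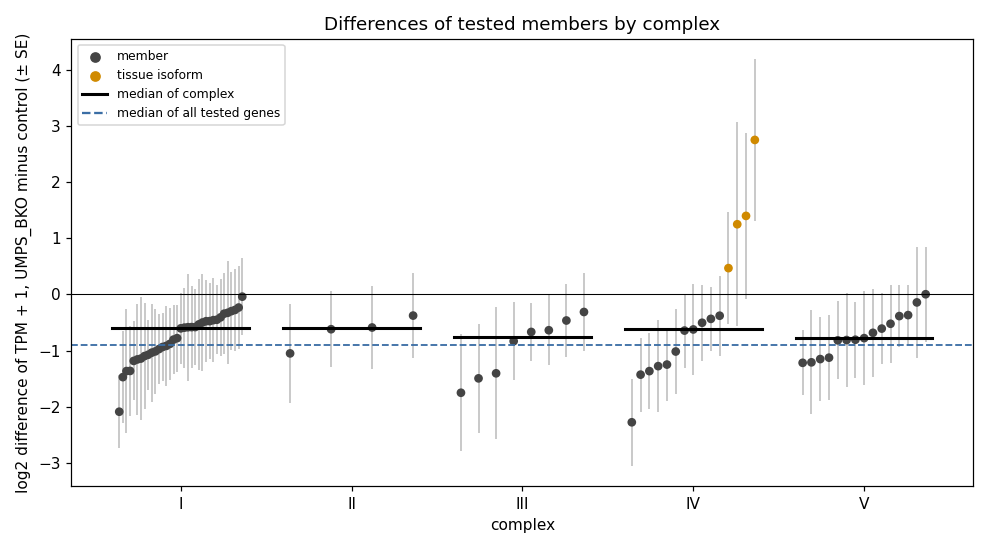
Log2 difference of TPM + 1, UMPS_BKO minus control, of each tested subunit of complexes I to V (points, with SE from limma, n = 4 per group), with the median of each complex (black bar) and of all tested genes (dashed line, −0.90). The 4 tested tissue isoforms of complex IV are the points between 0.47 and 2.75; none of the points passed the adjusted threshold.

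Complex IV split into ubiquitous subunits and tissue isoforms. The 11 ubiquitous genes, Ndufa4 among them, had a median log2 difference of −1.02, and the 4 tested tissue isoforms had a median of 1.32, while on the median-of-ratios scale the medians were −0.07 and 1.93. Cox8a, a small structural subunit (ENSMUSG00000035885, GRCm38 19, 7215153 to 7217616, minus strand), had 297, 95.3, 105 and 22.3 TPM in UMPS_BKO replicates 1 to 4, against 174, 809, 582 and 471 TPM in control replicates 1 to 4. UMPS_BKO replicate 1 was above control replicate 1, and the lowest library of all was UMPS_BKO replicate 4. The log2 difference was −2.28 ± 0.77 (SE, n = 4 per group; limma, adjusted p = 0.283) and −1.62 without that library. Cox6a1 (ENSMUSG00000041697, GRCm38 5, 115345642 to 115348981, minus strand), a subunit that lies at the dimer interface, had 288, 180, 295 and 83.6 TPM in UMPS_BKO and 192, 1067, 704 and 474 TPM in controls. It too was lowest in UMPS_BKO replicate 4, with control replicate 1 inside the UMPS_BKO range (−1.43 ± 0.66; limma, adjusted p = 0.287, and −1.04 without UMPS_BKO replicate 4).

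The other named ubiquitous subunits of complex IV also had differences below 0. Cox4i1, a regulatory subunit, had 377, 32.3, 224 and 574 TPM in UMPS_BKO and 266, 753, 657 and 422 TPM in controls (−1.28 ± 0.81; limma, adjusted p = 0.362). Cox6b1, which faces the intermembrane space, had 228, 49.8, 103 and 429 TPM in UMPS_BKO and 226, 530, 498 and 382 TPM in controls (−1.37 ± 0.68; limma, adjusted p = 0.295). Both genes overlapped between the groups through UMPS_BKO replicates 1 and 4. Cox7a2 had 62.4, 37.7, 18.4 and 105 TPM in UMPS_BKO and 62.5, 144, 199 and 87.3 TPM in controls (−1.25 ± 0.65; limma, adjusted p = 0.302), with UMPS_BKO replicate 1 and control replicate 1 nearly equal. Cox7b, another small subunit, had 57.3, 22.2, 36.5 and 210 TPM in UMPS_BKO and 22.1, 154, 160 and 104 TPM in controls (−0.62 ± 0.81; limma, adjusted p = 0.633). Ndufa4 had 117, 36.2, 104 and 366 TPM in UMPS_BKO and 72.1, 260, 163 and 155 TPM in controls (−0.38 ± 0.71; limma, adjusted p = 0.741). For Cox7b and Ndufa4, UMPS_BKO replicate 4 was the highest library, and both differences were above 0 on the median-of-ratios scale (0.32 and 0.57). Those of Cox4i1, Cox6b1 and Cox7a2 stayed below 0 on that scale (−0.33, −0.41 and −0.31), and UMPS_BKO replicate 4 ranked 3 of the 8 libraries for each. Without UMPS_BKO replicate 4 the differences were −1.78 for Cox4i1, −1.87 for Cox6b1, −1.64 for Cox7a2, −1.25 for Cox7b and −0.94 for Ndufa4.

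The isoforms Cox6a2, Cox7a1 and Cox8b, which replace Cox6a1, Cox7a2 and Cox8a in heart and skeletal muscle, were high in a single library. Cox6a2 (ENSMUSG00000030785, GRCm38 7, 128205435 to 128206387, minus strand) had 3.51, 15.4, 19.2 and 1109 TPM in UMPS_BKO replicates 1 to 4, against 17.0, 6.31, 0 and 5.16 TPM in control replicates 1 to 4. Cox7a1 (ENSMUSG00000074218, GRCm38 7, 30184144 to 30186078, plus strand) had 0, 23.8, 4.08 and 517 TPM in UMPS_BKO and 5.30, 1.60, 6.07 and 10.7 TPM in controls. Cox8b (ENSMUSG00000025488, GRCm38 7, 140898945 to 140900446, minus strand) had 1.62, 17.8, 0 and 593 TPM in UMPS_BKO and 39.4, 0, 0 and 21.8 TPM in controls. Outside UMPS_BKO replicate 4 the groups overlapped for all 3 genes. The log2 differences were 2.75 ± 1.44 for Cox6a2, 1.40 ± 1.48 for Cox7a1 and 1.25 ± 1.81 for Cox8b (SE, n = 4 per group; limma, adjusted p = 0.305, 0.556 and 0.672). Without UMPS_BKO replicate 4 they were 1.10, −0.28 and −0.59, so the direction of Cox7a1 and Cox8b rests on that library. The exons of Cox6a2 share 70 bases with Itgad on the opposite strand, which is 10.3% of their length.

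As a share of each pair, the muscle-type isoform made up most of the transcripts in UMPS_BKO replicate 4. Cox6a2 was 1.203%, 7.88%, 6.10% and 93.0% of the sum of Cox6a2 and Cox6a1 TPM in UMPS_BKO replicates 1 to 4, against 8.15%, 0.588%, 0% and 1.08% in control replicates 1 to 4. Cox8b was 0.543%, 15.7%, 0% and 96.4% of its sum with Cox8a in UMPS_BKO, against 18.5%, 0%, 0% and 4.42% in controls. Cox7a1 was 0%, 38.7%, 18.1% and 83.1% of its sum with Cox7a2 in UMPS_BKO, against 7.82%, 1.10%, 2.96% and 10.9% in controls. Cox7a1 thus reached a larger share than either other isoform in UMPS_BKO replicates 2 and 3, where its reads numbered 125.0 and 29.0. In control replicate 1, Cox8b rested on 180.0 reads and Cox6a2 on 147.0 reads.

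The markers of skeletal muscle were highest in the same library as these isoforms, and elsewhere the 2 did not always go together. All 14 skeletal muscle markers, Acta1 and Ckm among them, were above 0 in UMPS_BKO replicate 4, where they summed to 146311 TPM, against 0.2711 to 3352 TPM in the controls. The control with the largest sum was replicate 1, which also had the most Cox8b and Cox6a2 of the controls, whereas Cox7a1 was highest in control replicate 4. Control replicate 3, with the smallest sum, had 6.07 TPM of Cox7a1, against 5.30 TPM in control replicate 1. Of the 8 heart markers, Tnnt2, Tnni3, Myl7 and Nppa were at 0 in all libraries, and Actc1 reached 329 TPM in UMPS_BKO replicate 4. The other heart markers, Myh6, Myl2 and Myl3, were above 0 in some libraries, at no more than 0.463 TPM. Of the 4 brown fat markers, Ucp1 and Cidea were at 0 in every library, Adipoq was above 0 in control replicates 1 and 2, at no more than 0.856 TPM, and Fabp4 was at 15.5 TPM in UMPS_BKO replicate 4 and at no more than 1.83 TPM elsewhere. Whether the isoforms came from muscle tissue in the isolate or from another source was not tested.

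**Figure D3:**
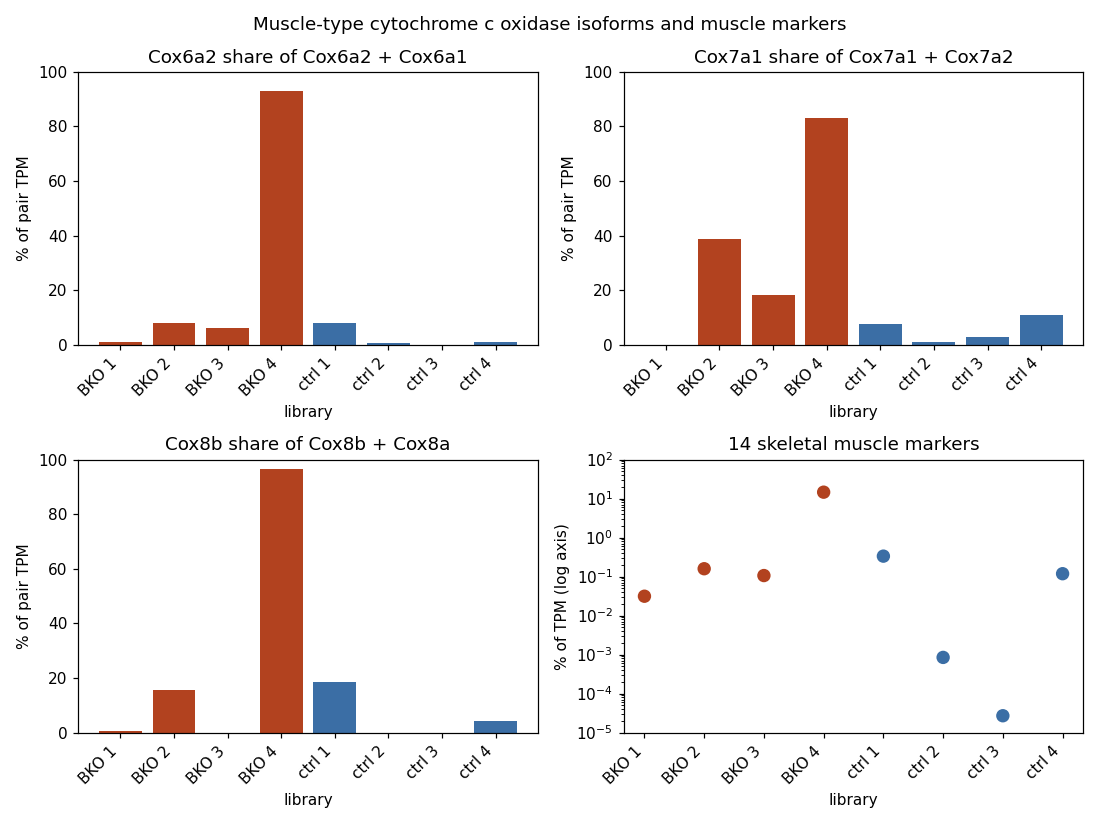
Share of the muscle-type isoform in the TPM of its pair (bars, linear axis) and summed share of 14 skeletal muscle markers in all TPM (points, log axis), in 4 UMPS_BKO (BKO) and 4 control (ctrl) libraries. UMPS_BKO replicate 4 stands at 93.0%, 83.1% and 96.4% in the 3 pairs and at 14.6% of TPM for the markers.

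The other tissue isoforms were low or not seen. Cox6b2, a testis isoform, had 0, 5.69, 23.0 and 0 TPM in UMPS_BKO and 4.48, 0, 1.83 and 1.83 TPM in controls (0.47 ± 1.00; limma, adjusted p = 0.775). It was highest in UMPS_BKO replicate 3, where 338.0 reads supported it. Of the 6 testis markers, Prm1, Prm2, Tnp1 and Ldhc were at 0 in all libraries. Tnp2 was at 0.313 TPM in control replicate 2 alone, and Pgk2 was at 0.867 TPM in UMPS_BKO replicate 1 and 1.19 TPM in control replicate 2 alone. Cox4i2, the lung isoform, and Cox7b2 and Cox8c, which are testis isoforms, were listed at 0 in all 8 libraries. Ndufa4l2, a hypoxia-induced relative of Ndufa4, was above 0 in UMPS_BKO replicate 4 at 2.83 TPM and in control replicate 2 at 2.15 TPM, and in no other library.

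Complex V had a median log2 difference of −0.78 over 15 genes, and 0.16 on the median-of-ratios scale. The 5 genes of the catalytic F1 head had a median of −0.81, the 4 of the peripheral stalk −0.65 and the 3 of the membrane c-ring −0.82. Atp5a1 and Atp5b encode the alpha and beta subunits of the F1 head, where ATP is made. Atp5b had 127, 19.2, 84.2 and 653 TPM in UMPS_BKO and 93.2, 465, 441 and 212 TPM in controls (−1.21 ± 0.93; limma, adjusted p = 0.425). Atp5a1 had 225, 69.9, 154 and 792 TPM in UMPS_BKO and 112, 578, 616 and 327 TPM in controls (−0.68 ± 0.79; limma, adjusted p = 0.588, and 0.27 on the median-of-ratios scale). In both genes UMPS_BKO replicate 4 was the highest library and control replicate 1 lay below UMPS_BKO replicate 1. The difference of Atp5b was −2.07 without UMPS_BKO replicate 4 and −0.40 without UMPS_BKO replicate 2, and that of Atp5a1 was −1.32 and −0.16.

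The c-ring protein is encoded by 3 genes, Atp5g1, Atp5g2 and Atp5g3, whose mature products are the same. Atp5g2 had 143, 58.5, 41.2 and 111 TPM in UMPS_BKO and 99.8, 239, 247 and 197 TPM in controls (−1.22 ± 0.58; limma, adjusted p = 0.288). Atp5g1, chosen after its values were seen, had 11.6, 11.2, 18.0 and 135 TPM in UMPS_BKO and 10.8, 54.0, 37.4 and 14.9 TPM in controls (0.00 ± 0.84). UMPS_BKO replicate 4 was thus the highest library for Atp5g1 and the fifth for Atp5g2. Atp5d, the delta subunit of the F1 head, had 70.3, 27.0, 25.1 and 187 TPM in UMPS_BKO and 50.1, 203, 250 and 90.2 TPM in controls (−1.15 ± 0.75; limma, adjusted p = 0.373). Atp5k, the membrane subunit e that holds dimers together, had 84.7, 27.7, 44.4 and 279 TPM in UMPS_BKO and 68.0, 266, 293 and 131 TPM in controls (−1.13 ± 0.76; limma, adjusted p = 0.381). Both overlapped between the groups. With UMPS_BKO replicate 4 left out, the differences were −1.38 for Atp5g2, −1.73 for Atp5d and −1.76 for Atp5k.

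Cox7a2l and Atp5s stand outside the 5 complexes. Cox7a2l had 418, 163, 160 and 114 TPM in UMPS_BKO and 236, 407, 546 and 489 TPM in controls (−1.09 ± 0.57; limma, adjusted p = 0.305). Like Cox6a1 and Cox8a it was lowest in UMPS_BKO replicate 4, and UMPS_BKO replicate 1 alone lay within the control range. Atp5s had 4.04, 0, 0 and 8.56 TPM in UMPS_BKO and 4.51, 0.809, 6.01 and 6.34 TPM in controls (−0.85 ± 0.86; limma, adjusted p = 0.537). Without UMPS_BKO replicate 4 the differences were −0.85 for Cox7a2l and −1.47 for Atp5s.

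Set against the median of all tested genes within each library, UMPS_BKO replicate 4 stood apart in every complex. Its members' median deviation exceeded that of all genes by 1.66, 1.58, 1.79, 1.49 and 1.61 on the log2 scale in complexes I to V. The other 7 libraries lay between −0.78 and 0.31 in all 5 complexes. Relative to the median of all genes, the group differences of complexes I to V were 0.29, 0.29, 0.14, 0.27 and 0.12, and without UMPS_BKO replicate 4 they were −0.25, −0.13, −0.34, −0.10 and −0.41. With control replicate 2 left out too, they were −0.19, −0.05, −0.26, −0.19 and −0.34. For the 75 tested members other than tissue isoforms, deviations from each gene's mean over the 4 controls were also read. Their interquartile range was 0.465, 0.928, 1.09 and 0.937 in UMPS_BKO replicates 1 to 4. It was 0.558, 0.320, 0.360 and 0.441 in control replicates 1 to 4. The control values enter that mean, so the groups do not stand on equal terms in this measure.

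**Figure D4:**
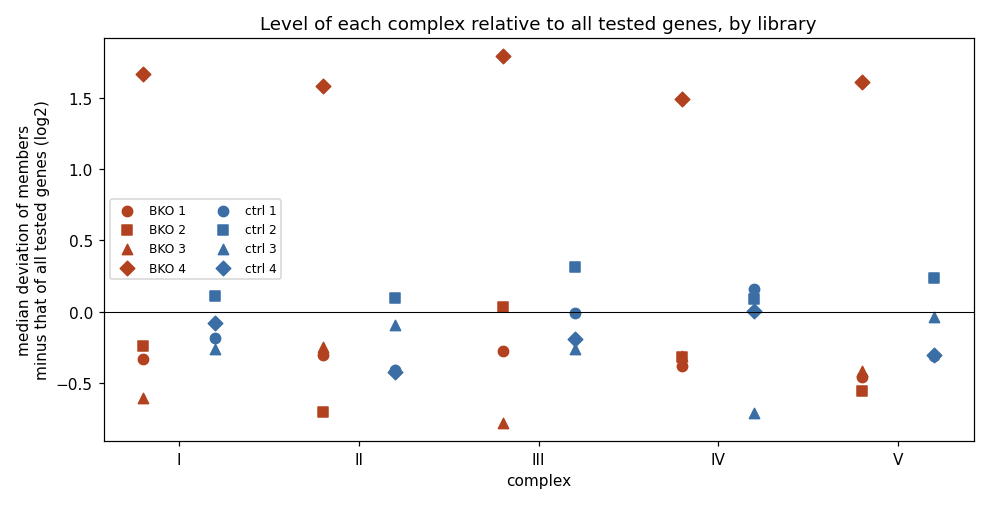
Median deviation of the members of each complex from their own mean over the 8 libraries, minus that of all tested genes (log2(TPM + 1)), by library, with UMPS_BKO (BKO) left of control (ctrl) in each complex. UMPS_BKO replicate 4 lies between 1.49 and 1.79, and all other libraries lie between −0.78 and 0.31.

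Summed over the 83 genes, nuclear-encoded subunits took 0.687%, 0.264%, 0.402% and 1.75% of TPM in UMPS_BKO replicates 1 to 4, against 0.493%, 1.57%, 1.35% and 0.924% in control replicates 1 to 4. The groups overlapped, and UMPS_BKO held both the lowest and the highest share. When 5 ribosomal RNA-like features and the mitochondrially encoded features were taken out of the total, the shares were 1.45%, 1.27%, 1.201% and 3.85% in UMPS_BKO and 1.60%, 1.82%, 1.61% and 1.65% in controls. On that base the 4 controls were close to each other, UMPS_BKO replicates 1 to 3 lay below them and UMPS_BKO replicate 4 above. Within the sum, complex I took 28.0% to 36.01% in UMPS_BKO and 32.6% to 33.6% in controls, and complex IV took 23.5% to 29.2% in UMPS_BKO and 24.9% to 28.4% in controls. The make-up of the complex IV share differed, since its ubiquitous genes took 25.6%, 21.1%, 28.0% and 14.3% of the sum in UMPS_BKO replicates 1 to 4, against 26.6%, 27.4%, 24.9% and 28.0% in control replicates 1 to 4. Its tissue isoforms took 12.7% in UMPS_BKO replicate 4 and at most 2.37% in the other UMPS_BKO libraries, against at most 1.34% in controls. Complex II took 3.23% to 4.35% in UMPS_BKO and 2.88% to 3.80% in controls.

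**Figure D5:**
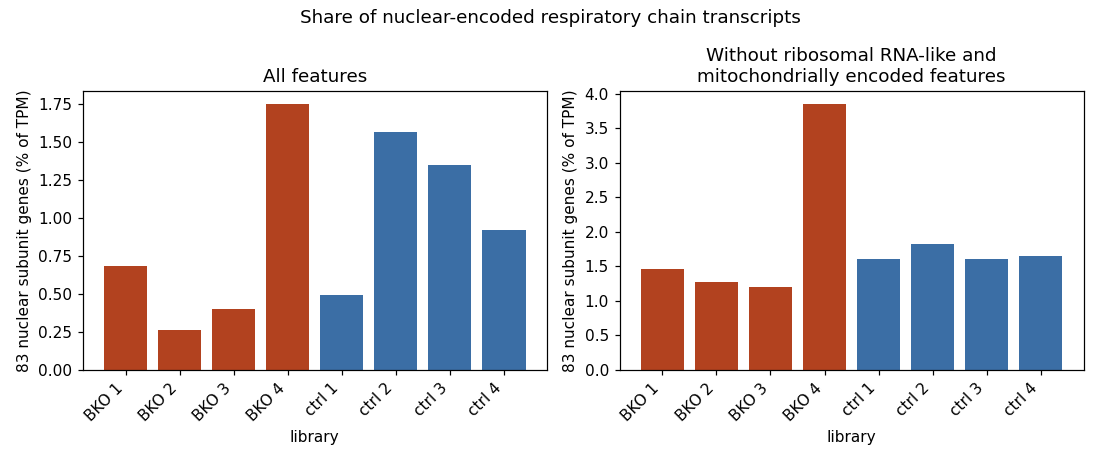
Summed TPM of the 83 nuclear-encoded genes as a share of all TPM (left) and after 5 ribosomal RNA-like features and the mitochondrially encoded features were removed (right), in 4 UMPS_BKO (BKO) and 4 control (ctrl) libraries. On the right the controls lie between 1.60% and 1.82%, UMPS_BKO replicates 1 to 3 between 1.201% and 1.45%, and UMPS_BKO replicate 4 at 3.85%.

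The order of levels in the controls placed complex IV subunits first. Median control TPM was 589 for Cox6a1, 540 for Cox4i1, 527 for Cox8a, 452 for Atp5a1 and 448 for Cox7a2l, and the control ranges of these 5 genes overlapped. In UMPS_BKO the medians of the same genes were 234, 300.2, 99.96, 190 and 161 TPM. Among ubiquitous subunits the lowest median control levels were those of Ndufb2 (7.46 TPM) and Ndufs1 (13.4 TPM), in which the UMPS_BKO medians were 6.39 and 11.7 TPM. Their annotated exon lengths were 5628 and 8086 bases, against 702 bases for Cox6a1. TPM is scaled by gene length, so an order of levels between genes depends on the lengths used.

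The 13 subunits encoded by mitochondrial DNA took 7.69%, 17.7%, 17.0% and 16.0% of TPM in UMPS_BKO replicates 1 to 4, against 8.31%, 7.60%, 4.90% and 8.10% in control replicates 1 to 4. UMPS_BKO replicates 2 to 4 were above all controls and UMPS_BKO replicate 1 lay among them. None of the 13 passed the test, and their median log2 difference was 0.96. The ratio of mitochondrially to nuclear-encoded subunit TPM was 11.2, 67.2, 42.3 and 9.14 in UMPS_BKO and 16.9, 4.84, 3.63 and 8.76 in controls. It was highest in UMPS_BKO replicates 2 and 3, the libraries with the lowest nuclear share, and the groups overlapped. Read counts for these mitochondrial genes come from poly(A) libraries, and mt-Co2, which every respiring cell uses, was listed at no more than 8.23 TPM in any library. The highest values of mt-Co3, mt-Atp6, mt-Atp8, mt-Nd4l and mt-Nd3 were 29.7, 12.4, 5.98, 43.1 and 103 TPM. The lowest value of mt-Co1 was 19464 TPM. The sum and the ratio thus rest almost wholly on mt-Nd1, mt-Nd2, mt-Nd4, mt-Nd5, mt-Nd6, mt-Cytb and mt-Co1.

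Genes that serve the complexes from outside the name rule were read in the same fit, and none passed the test. Of 42 tested assembly factors, 35 had a difference below 0, against 84.3% of all genes. Their median was −0.70, against −0.90 over all genes. Surf1, which assembles complex IV, had 6.84, 0, 5.24 and 16.8 TPM in UMPS_BKO and 5.08, 29.7, 39.8 and 38.0 TPM in controls (−2.10 ± 0.94; limma, adjusted p = 0.283). Uqcc3, which assembles complex III, had 53.7, 2.70, 48.9 and 53.0 TPM in UMPS_BKO and 54.4, 115, 133 and 117 TPM in controls (−1.89 ± 0.84; limma, adjusted p = 0.283). For Uqcc3 all UMPS_BKO libraries were below all controls, by a small margin between UMPS_BKO replicate 1 and control replicate 1, a pattern found in 4.81% of all genes.

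All 13 citric acid cycle genes had a difference below 0, against 84.3% of all genes. Their median was −0.59, and 0.34 on the median-of-ratios scale. Suclg2, a subunit of succinyl-CoA synthetase, had 7.39, 1.45, 10.1 and 12.1 TPM in UMPS_BKO and 3.48, 38.7, 47.1 and 25.7 TPM in controls (−1.57 ± 0.86; limma, adjusted p = 0.320). Of the 11 tested regulators, 10 had a difference below 0, against 84.3% of all genes, with a median of −1.06. On the median-of-ratios scale that median was −0.15, the same as for all genes. Gabpa, the DNA-binding subunit of GABP, had 3.31, 0, 4.99 and 6.73 TPM in UMPS_BKO and 8.57, 20.98, 27.7 and 16.6 TPM in controls (−2.26 ± 0.77; limma, adjusted p = 0.283). Yy1 had 24.8, 10.9, 17.6 and 17.0 TPM in UMPS_BKO and 23.1, 67.8, 75.9 and 50.1 TPM in controls (−1.50 ± 0.58; limma, adjusted p = 0.283). The groups did not overlap for Gabpa, as for 4.81% of all genes with UMPS_BKO lower, and for Yy1 control replicate 1 lay inside the UMPS_BKO range. Gabpa and the complex V gene Atp5j share 397 exonic bases on opposite strands, so their reads cannot be told apart there unless strand was used in counting.

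Ndufab1, Cyc1 and Cycs belong to the chain but lie outside the name rule, and their median difference was −0.70. Of the 4 genes that feed electrons to ubiquinone outside complexes I and II, all had a difference below 0, against 84.3% of all genes. Their median was −0.44. Dhodh was at 4.15, 0, 5.30 and 6.26 TPM in UMPS_BKO and at 1.02, 5.83, 4.94 and 3.21 TPM in controls (−0.14 ± 0.78; limma, adjusted p = 0.917), so 3 of the 4 UMPS_BKO libraries were within or slightly above the control range. Etfdh, which passes electrons from fatty acid oxidation, had 1.47, 0, 2.76 and 11.6 TPM in UMPS_BKO and 1.45, 23.1, 14.9 and 6.54 TPM in controls (−1.48 ± 0.93; limma, adjusted p = 0.359).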

How the data were processed

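RNA from 8 samples was enriched for poly(A) with oligo(dT) beads and made into NEBNext Ultra II libraries, per the labels' protocols. The tools bcl2fastq 2.20, STAR 2.5.2b, featureCounts and Subread 1.5.2 and the build GRCm38 are named in the submitters' processing notes. The authors deposited TPM, 1 column per library, each summing to 1000000. Neither the TPM formula nor the annotation release nor the strand setting is given in the sources used here. TPM falls for every other gene where ribosomal RNA-like or mitochondrial features are abundant.

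Columns were matched to samples by library name. Coordinates and exon lengths came from GENCODE M21 (GRCm38). Low values under 30 reads, times exon length, gave whole reads within 0.05 reads for 90.6% to 92.8% of them, from which depth was recovered; since the rest did not, no count model was run. Counting error for a gene follows from its reads.

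Genes with TPM of at least 1 in at least 4 libraries entered a linear model of log2(TPM + 1) (limma 3.58.1, R 4.3.3; moderated by eBayes, trend on, two-sided, Benjamini-Hochberg over all 10708 genes, threshold 0.05), so differences of low genes are understated. The fit was tested on simulated data. Medians over complexes are descriptions with no test. The members and the lists were chosen with earlier results of these data known. Named members were, per complex, up to 4 with the smallest p and the 2 with the highest mean TPM, all Sdh genes, tissue isoforms with their partners, names outside their complex, and the 3 highest and 3 lowest differences; from each other list, up to 2 genes with the smallest p. Further genes, such as Ndufc1, Uqcrc1, Ndufb2 and mt-Co2, were added after their values were seen. Dhodh was named outside these rules, and its p was the largest of its list. Alternatives were other pseudocounts, filters and scalings, removal of features, array weights, no trend, a replicate block, and libraries left out. Python 3.11.15 with numpy 2.4.6 and pandas 2.3.3 made the tables.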

Additional observations from a re-analysis of the deposited data

Results flagged for a closer look

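In 90 groups of 4 values, 7 held a library whose gap to the nearest of the others, as a part of the group's range, passed Dixon's 95% critical value. The groups were levels of the 33 named members, library shares, ratios and complex medians, and isoform pair shares, each within UMPS_BKO or control. No level of a single member was flagged. Chance gives about 1 in 20 in independent groups, but these reuse the same 8 libraries, so that rate does not judge the count. Of the 7, 6 were UMPS_BKO replicate 4. The share of nuclear-encoded subunits in TPM, after ribosomal RNA-like and mitochondrially encoded features were removed, was 3.85% there, against 1.201% to 1.45% in the other UMPS_BKO libraries. The members' median deviation relative to all genes was 1.66 for complex I, 1.49 for complex IV and 1.61 for complex V in this library, and the other UMPS_BKO libraries lay between −0.60 and −0.24 in these complexes. Cox6a2 made up 93.0% of its pair with Cox6a1 and Cox8b 96.4% of its pair with Cox8a in the same library. The seventh was control replicate 1, in which Cox6a2 made up 8.15% of its pair, against 0% to 1.08% in the other controls. Skeletal muscle markers took 14.6% of TPM in UMPS_BKO replicate 4 and 0.335% in control replicate 1, each the highest of its group, and their part in these values was not tested.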

How the results depend on the processing

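The count of genes passing the test, 14 of 10708, was 8 with a pseudocount of 0.1, 1 with no filter beyond a TPM above 0, 9 after quantile normalization, 6 after ribosomal RNA-like and mitochondrial features were removed, 1990 with array weights (84 higher, 1906 lower), and 3 with control replicate 2 and UMPS_BKO replicate 4 both left out. Leaving out each library in turn gave 0 to 301, the highest without UMPS_BKO replicate 1. With the replicate number as a block it was 28, and no member passed. Deviations of same-numbered samples correlated at −0.35, −0.19, −0.03 and −0.09. Libraries also differed in make-up, so these values cannot decide whether the numbers pair the samples. The count of members passing was 0 in the main setting, in which 3 of 79 had an unadjusted p under 0.05, and 16 with array weights, all lower (20.3% of members, against 18.6% of all genes). It was 0 under the other 18 alternatives, and the smallest adjusted p among members was 0.0565 without UMPS_BKO replicate 1. Array weights give less weight to libraries that fit poorly, but the weights were not read, and the source of the 16 calls was not tested. Leaving out UMPS_BKO replicate 4 raised the members at an unadjusted p under 0.05 to 26 of 79, with 0 passing the adjusted threshold.

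The 33 named members kept their sign and side of the threshold in 574 of 625 alternative values. On the median-of-ratios scale the sign reversed for Atp5a1 (0.27), Cox7b (0.32), Ndufa2 (0.17), Ndufa4 (0.57), Sdha (0.33), Sdhc (0.55), Sdhd (0.35), Uqcr11 (0.64), Uqcrh (0.28) and Uqcrq (0.11). After quantile normalization it reversed for Atp5a1 (0.29), Atp5s (0.0227), Cox7b (0.20), Ndufa2 (0.13), Ndufa4 (0.57), Sdha (0.19), Sdhc (0.44), Sdhd (0.27), Uqcr11 (0.65) and Uqcrh (0.21). With ribosomal RNA-like and mitochondrial features removed it reversed for Atp5a1 (0.0802), Cox7b (0.13), Ndufa4 (0.38), Sdha (0.14), Sdhc (0.36), Sdhd (0.16), Uqcr11 (0.45) and Uqcrh (0.0951). A pseudocount of 0.1 reversed Cox6b2 (−0.0890), and leaving out control replicate 2 and UMPS_BKO replicate 4 reversed Cox7a1 (−0.68) and Cox8b (−1.41). With 1 library left out, the ranges that crossed 0 were −0.45 to 1.08 for Cox6b2, −0.28 to 2.73 for Cox7a1, −0.59 to 2.48 for Cox8b, −0.94 to 0.16 for Ndufa4, −0.88 to 0.25 for Sdhc, −1.06 to 0.13 for Sdhd and −0.85 to 0.0819 for Uqcr11. These scalings divide out the median shift of all genes, which was −0.90 on the TPM scale, −0.15 on the median-of-ratios scale and −0.02 with quantile normalization. The medians of complexes I to V relative to all genes, 0.29, 0.29, 0.14, 0.27 and 0.12, were also below 0 with a pseudocount of 5 (−0.05, −0.03, −0.18, −0.05 and −0.16), with no filter (−0.14, −0.14, −0.29, −0.10 and −0.32), and with control replicate 2 and UMPS_BKO replicate 4 both left out (−0.19, −0.05, −0.26, −0.19 and −0.34). Array weights gave −0.16, 0.08, −0.29, 0.24 and −0.08. With 1 library left out they ranged from −0.25 to 0.50, −0.13 to 0.50, −0.34 to 0.35, −0.10 to 0.59 and −0.41 to 0.42. The cause of these changes was not tested.

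Counting error weighs most on members with few reads: of the tested members, up to 3 in a UMPS_BKO library had under 5 reads. In control replicate 3 there were 2, and in control replicate 2 Cox6b2 and Cox8b were at 0 reads and Cox7a1 at 5. Low counts did not always follow depth. Ndufb2 and Ndufc1 had 0 reads in UMPS_BKO replicate 2 and were above 0 in control replicate 3. Recovered depth was 10.6 and 5.81 in these libraries, in units of 1000000 reads.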

Other observations

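The exons of 29 of the 83 members overlap those of another gene, 26 of them on the opposite strand. The longest shares of exon length were 39.0% for Ndufb6 with Smim27, 29.98% for Ndufa13 with Tssk6 and 19.7% for Uqcrc2 with Pdzd9, and the values of such members can hold reads of both genes where strand was not used. The 6 pseudogenes left out by name reached at most 1.91 TPM in any library.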
